A study of Mus musculus with 24 samples.

Results

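Lysine 9 of histone H3 carries the methyl marks of silent chromatin, and RNA was measured here for the enzymes that write these marks, the enzymes that remove them and the proteins that bind them. 10 genes were chosen by name: the writers Ehmt1, Ehmt2, Setdb1, Suv39h1 and Suv39h2, the erasers Kdm3a and Kdm4c, and the readers Cbx1, Cbx3 and Cbx5. A probe set counted for a gene where the array annotation listed that symbol alone. This gave 22 of the 34945 probe sets listed for 1 gene alone, and 9 of the 18193 genes that these probe sets cover. Suv39h1 had no probe set listed for it and was not analysed here.

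Ehmt1 (GLP) and Ehmt2 (G9a) work as a heterodimer that writes mono- and dimethylation of H3K9 in euchromatin, while Setdb1, Suv39h1 and Suv39h2 write trimethylation, at retroelements and at pericentric heterochromatin. Kdm3a removes mono- and dimethylation, Kdm4c removes di- and trimethylation, and the heterochromatin protein 1 (HP1) family, Cbx5 (HP1 alpha), Cbx1 (HP1 beta) and Cbx3 (HP1 gamma), binds the methylated residue through a chromodomain. Mouse primordial germ cells (PGCs), the founders of sperm and eggs, are known for losing H3K9 dimethylation genome-wide as they form and migrate.

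The study followed a culture route from mouse embryonic stem cells (ESCs) to germ cells and set it beside the embryo, on Affymetrix arrays of 24 samples in 12 groups of 2. All samples carry the strain label C57BL/6. Unamplified arrays covered ESCs kept in 2i and LIF without feeder cells, epiblast-like cells (EpiLCs) at days 1, 2 and 3 of their induction from those ESCs, epiblast stem cells (EpiSCs) derived from epiblast at embryonic day 5.75, and PGC-like cells (PGCLCs) induced from day 2 EpiLCs. Amplified arrays covered ESCs, day 2 EpiLCs, EpiSCs, epiblast, PGCLCs and PGCs at embryonic day 9.5, and each sample was amplified by 22 cycles of PCR from 5 ng of total RNA, the equivalent of 500 cells. The series text places the epiblast at embryonic days 5.5 to 6.0 and describes reporter transgenes in the PGCLCs without naming them in the labels. The labels name the replicates as biological, but nothing says that they came from different cultures or litters, and a p-value then measures only the spread between the samples at hand.

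Values are intensities on a linear scale, fitted without a term for the replicate number, and differences are given as log2 ± standard error (SE) with n = 2 arrays per group. A gene was called, and is said to have risen or fallen, where limma gave an adjusted p under 0.05 together with a change of at least 2-fold, which is 1 on the log2 scale. All 9 genes on the array passed the filter on low values in both sets of arrays, although Cbx3 exceeded the filter level on only 6 of the 12 amplified arrays. Replicate arrays correlated at 0.975 to 0.991 without amplification and at 0.911 to 0.972 with it, the lowest value belonging to the amplified EpiSCs. Markers of other cells were present in the embryonic samples: summed endothelial and blood markers reached 4702 and 11322 in the PGC arrays against 157 to 1228 in the other amplified arrays, with Cdh5 not above the filter level, and summed visceral endoderm markers reached 702 and 2261 in the epiblast arrays against 80.7 to 339.9 in the others. In the EpiSCs, summed fibroblast markers reached 8996 and 9130 without amplification and 2587 and 2793 with it, against at most 1863 and 1193 in the other groups of each set. The sum of 7 germ cell markers was 14192 and 14232 in the unamplified PGCLCs against at most 3666 in the other unamplified groups. The endothelial and blood sum was 865 and 937 in those PGCLC arrays against 141 to 355 elsewhere in the set, mostly from Pecam1, and Cdh5, Hbb-bh1 and Hba-x were not above the filter level there; the part of these cell markers in the PGCLC differences was not tested. In bulk RNA of this kind, fewer cells of a type and less RNA per cell cannot be told apart.

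The most calls fell in the step from day 2 EpiLCs to PGCLCs on unamplified arrays, where the writer Ehmt1, the eraser Kdm4c and the reader probe set of Cbx3 fell and the eraser Kdm3a rose. That is 4 of 9 genes called, against 20.6% of all 14934 genes tested, with 3 lower against a background of 11.9% and 1 higher against 8.78%. The 9 genes were chosen with earlier results of these data known, so these shares describe the list and do not test it. The Cbx3 call in these counts rests on 1 dim probe set. The 3 brightest other probe sets that carry its symbol did not show a fall of this size, as described below. The median log2 difference of the 9 genes was -0.58, and that of all genes was -0.09. Replicate 1 of the PGCLCs and of the day 2 EpiLCs carry different array codes, and what the codes stand for is not stated. In the embryonic counterpart, PGCs minus epiblast on amplified arrays, Ehmt1 alone was called among the 9 genes, with a background of 10.5% in either direction and 4.36% for lower calls.

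**Figure D1:**
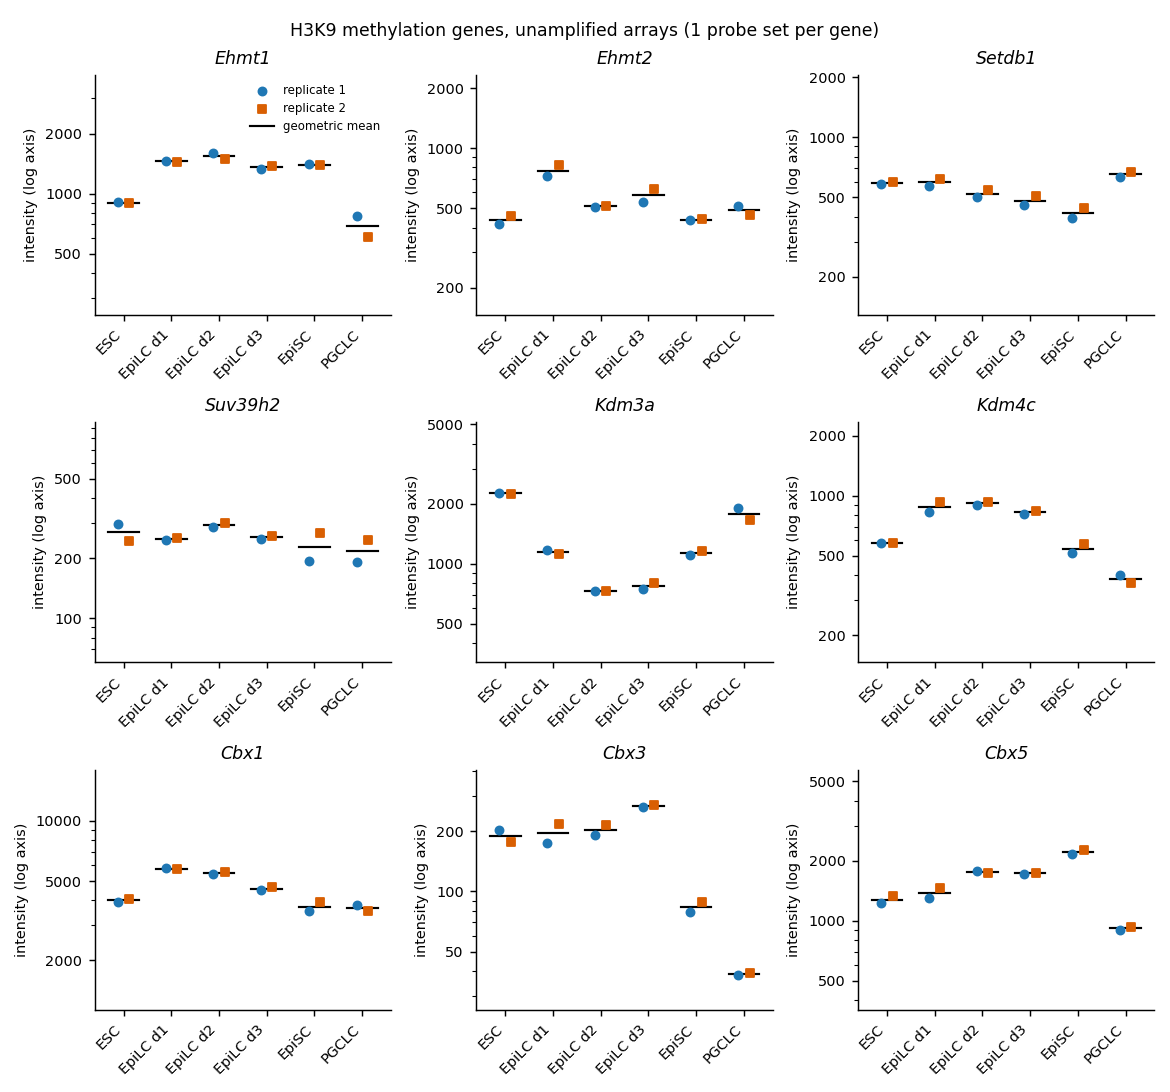
Intensity of the 9 genes on the 12 unamplified arrays (log axis, arbitrary units), with 1 panel per gene, a point for each array and a bar at the geometric mean of the 2 arrays of a group. Kdm3a is highest in ESCs and PGCLCs and lowest in day 2 EpiLCs, while Ehmt1 and Kdm4c are lowest in PGCLCs.

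Ehmt1, the GLP subunit of the H3K9 dimethyltransferase, lies on chromosome 2 (GRCm38.p6, 24790769 to 24919643, RefSeq) and was measured by 1 probe set. Its unamplified intensity was 903 and 899.8 in ESCs, 1463 and 1436 in day 1 EpiLCs, 1601 and 1492 in day 2 EpiLCs, 1332 and 1376 in day 3 EpiLCs, 1400.2 and 1395 in EpiSCs and 768 and 609 in PGCLCs. The EpiLC and EpiSC arrays were all above the ESC arrays, and both PGCLC arrays were below every other unamplified array. Ehmt1 fell 2.26-fold from day 2 EpiLCs to PGCLCs, with a log2 difference of -1.18 ± 0.09 (adjusted p = 1.1e-06). It was higher in day 1 EpiLCs than in ESCs by 0.68 ± 0.09 (adjusted p = 0.00012) and in day 2 EpiLCs by 0.78 ± 0.09 (adjusted p = 3.4e-05), both under the size needed for a call. PGCLCs also lay below the ESCs, by -0.40 ± 0.09 (adjusted p = 0.0031).

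On amplified arrays the Ehmt1 intensity was 1052 and 1354 in epiblast, 749.8 and 1314 in EpiSCs, 685 and 841 in day 2 EpiLCs, 450.4 and 613 in ESCs, 349.8 and 495 in PGCLCs and 336 and 334 in PGCs. The PGC arrays were the lowest, and neighbouring groups overlapped from epiblast through EpiSCs to day 2 EpiLCs and between ESCs and PGCLCs. Ehmt1 fell 3.56-fold from epiblast to PGCs, with a log2 difference of -1.83 ± 0.32 (adjusted p = 0.0057), and the arrays of these groups did not overlap. Without epiblast replicate 2 the adjusted p was 0.061, which ends the call. The summed endothelial and blood markers given above were highest in the same PGC arrays, and the summed visceral endoderm markers in the same epiblast arrays; their part in the Ehmt1 difference was not tested.

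In culture, the amplified arrays gave an Ehmt1 difference of -0.87 ± 0.32 (adjusted p = 0.12) between PGCLCs and day 2 EpiLCs, with a 95% interval of -1.59 to -0.14, which was not called. Blocking on the replicate number brought the adjusted p of this difference to 0.017, but its size stayed under 1. The difference between amplified and unamplified estimates of the step was 0.31 ± 0.34 (adjusted p = 0.82), with a 95% interval of -0.41 to 1.03.

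The promoter sequences of Ehmt1, Kdm4c and Kdm3a are shown because these were the writer and the erasers called in the step to PGCLCs. Each is the 250 bases before a transcription start in RefSeq (GRCm38.p6), written 5′ to 3′ on the gene's own strand: Ehmt1 from chr2:24919610-24919859 on the minus strand, Kdm4c from chr4:74242247-74242496 and chr4:74251629-74251878 on the plus strand, and Kdm3a from chr6:71632918-71633167 on the minus strand, which is 1 of the 3 starts listed. Capitals mark matches, on either strand, to the motifs GGGCGG (a GC box), CCAAT and CACGTG (an E-box).
Ehmt1: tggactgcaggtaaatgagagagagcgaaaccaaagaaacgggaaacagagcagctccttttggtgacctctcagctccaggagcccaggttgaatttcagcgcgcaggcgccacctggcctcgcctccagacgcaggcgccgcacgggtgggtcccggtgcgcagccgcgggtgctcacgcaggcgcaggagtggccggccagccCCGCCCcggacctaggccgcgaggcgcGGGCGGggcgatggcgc
Kdm4c, start 1: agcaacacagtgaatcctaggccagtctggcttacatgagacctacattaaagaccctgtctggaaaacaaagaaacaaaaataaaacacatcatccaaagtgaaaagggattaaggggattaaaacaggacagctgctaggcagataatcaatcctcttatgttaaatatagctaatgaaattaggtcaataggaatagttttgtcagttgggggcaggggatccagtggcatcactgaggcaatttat
Kdm4c, start 2: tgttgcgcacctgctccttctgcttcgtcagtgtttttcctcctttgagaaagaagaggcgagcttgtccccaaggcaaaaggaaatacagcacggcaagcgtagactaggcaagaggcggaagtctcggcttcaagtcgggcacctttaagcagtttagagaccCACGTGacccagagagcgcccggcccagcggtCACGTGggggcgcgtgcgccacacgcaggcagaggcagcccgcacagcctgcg
Kdm3a, start 1: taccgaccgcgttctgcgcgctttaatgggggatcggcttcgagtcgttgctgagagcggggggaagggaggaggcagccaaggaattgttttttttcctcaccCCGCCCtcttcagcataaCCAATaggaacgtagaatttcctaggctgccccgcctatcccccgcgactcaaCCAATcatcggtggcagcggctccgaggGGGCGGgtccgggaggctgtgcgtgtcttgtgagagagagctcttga

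The Ehmt1 window held 26 CG dinucleotides, a number reached by 9.59% of the 32851 promoters of the same length, and 2 GGGCGG matches that begin 44 and 17 bases before the start. The Kdm3a window held 20 CG dinucleotides (reached by 17.9%), 2 GGGCGG matches at 146 and 47 bases and 2 CCAAT matches at 128 and 75 bases. The other listed starts of Kdm3a differ from it: the window of start 2 has 31 CG dinucleotides (reached by 5.19%) and 4 GGGCGG matches, and that of start 3 has 0 and no match to these motifs. The listed starts of Kdm4c differ too: the first window has 0 CG dinucleotides and no match to these motifs, and the second has 19 (reached by 19.7%) and 2 CACGTG matches at 85 and 53 bases. Among all promoters, 32.7% hold GGGCGG, 33.8% hold CCAAT, 6.02% hold CACGTG and 12.4% hold TATAAA, which was searched too and found in none of the sequences printed. A match is a run of letters and does not show that a factor binds there.

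Ehmt2, the G9a subunit that pairs with Ehmt1, was not called at either germ cell step. Without amplification Ehmt2 read 417 and 456 in ESCs, 725 and 820.3 in day 1 EpiLCs, 508 and 515 in day 2 EpiLCs, 537 and 625 in day 3 EpiLCs, 436 and 440.4 in EpiSCs and 515 and 463 in PGCLCs. The day 1 EpiLC arrays stood above all others, and the day 2 EpiLC and PGCLC arrays overlapped. The day 1 EpiLCs exceeded the ESCs by 0.82 ± 0.10 (adjusted p = 4.9e-05) and the day 2 EpiLCs lay below day 1 by -0.59 ± 0.10 (adjusted p = 0.00077), neither large enough for a call. The difference between PGCLCs and day 2 EpiLCs was -0.07 ± 0.10 (adjusted p = 0.58), with a 95% interval of -0.28 to 0.14. Whether the Ehmt1 and Ehmt2 differences are unequal was not tested.

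On amplified arrays Ehmt2 lay between 1097 and 1822 on all 12 arrays, with 1619 and 1811 in epiblast and 1412 and 1357 in PGCs. The PGC arrays lay below both epiblast arrays, and the difference was -0.31 ± 0.26 (adjusted p = 0.58), with a 95% interval of -0.89 to 0.27. A second Ehmt2 probe set was dimmer, between 52.4 and 99 on unamplified arrays, and was above the filter level on 0 of the 12 amplified arrays.

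Setdb1, which writes H3K9 trimethylation at retroelements, was called in none of the comparisons made. On unamplified arrays it read 584 and 598 in ESCs, 572 and 619.9 in day 1 EpiLCs, 503 and 542 in day 2 EpiLCs, 456 and 506 in day 3 EpiLCs, 395 and 441 in EpiSCs and 629.9 and 673 in PGCLCs. PGCLCs were the highest group and EpiSCs the lowest, and the groups' means spanned 0.64 on the log2 scale. PGCLCs exceeded day 2 EpiLCs by 0.32 ± 0.09 (adjusted p = 0.0083) and EpiSCs lay below them by -0.32 ± 0.09 (adjusted p = 0.0083), both under the size for a call. On amplified arrays the EpiSC replicates read 553 and 1292 and the other 10 arrays lay between 549 and 918. 2 further Setdb1 probe sets were above the filter level on 0 arrays.

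Suv39h2, which trimethylates H3K9 in pericentric heterochromatin, gave different patterns on its 3 probe sets. The one that stood for the gene, the brightest over all 24 arrays but the dimmest of the 3 without amplification, read 297 and 244 in ESCs, 287 and 302 in day 2 EpiLCs and 192 and 248 in PGCLCs without amplification. The second read 243 and 251 in ESCs, 420.2 and 430.2 in day 2 EpiLCs and 523 and 525 in PGCLCs, and the third 289.6 and 286, 467 and 485 and 545 and 585. On both of these probe sets all PGCLC arrays lay above all ESC arrays, while on the first these groups overlapped.

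PGCLCs minus ESCs gave -0.30 ± 0.16 (adjusted p = 0.14) on the Suv39h2 probe set that stood for the gene. With every probe set tested on its own, the second gave 1.09 ± 0.10 (adjusted p = 7.9e-06), which is a call, and the third 0.97 ± 0.08 (adjusted p = 1.7e-06). PGCLCs minus day 2 EpiLCs gave -0.43 ± 0.16 (adjusted p = 0.046) on the first and 0.30 ± 0.10 (adjusted p = 0.031) and 0.25 ± 0.08 (adjusted p = 0.018) on the others. The direction of Suv39h2 in PGCLCs therefore depends on the probe set. On amplified arrays the first probe set lay between 224 and 430.4 and its group means spanned 0.34 on the log2 scale. The others varied more there. The group means of the second spanned 1.97, with ESCs lowest and epiblast highest. Those of the third spanned 1.79, with ESCs lowest and PGCs highest.

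Kdm3a, the demethylase of mono- and dimethylated H3K9, followed a course opposite in sign to Ehmt1 at the entry into EpiLCs and at the step to PGCLCs. It lies on chromosome 6 (71588970 to 71632990) and was measured by 1 probe set. Its unamplified intensity was 2256 and 2252 in ESCs, 1174 and 1126 in day 1 EpiLCs, 731 and 733 in day 2 EpiLCs, 752 and 799.6 in day 3 EpiLCs, 1104 and 1155 in EpiSCs and 1915 and 1665 in PGCLCs. The ESC and PGCLC arrays were the highest, the day 2 EpiLC arrays were the lowest, and among neighbours in the order only day 1 EpiLCs and EpiSCs overlapped.

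Kdm3a fell 3.08-fold from ESCs to day 2 EpiLCs, by a log2 difference of -1.62 ± 0.07 (adjusted p = 1.9e-08). It was the 1 gene of 9 called there, against a background of 16.5% of all genes. The difference was -0.97 ± 0.07 (adjusted p = 1.4e-06) by day 1, just under the size for a call, and a further -0.65 ± 0.07 (adjusted p = 5.7e-05) from day 1 to day 2. Kdm3a rose 2.44-fold from day 2 EpiLCs to PGCLCs, by 1.29 ± 0.07 (adjusted p = 8.4e-08), and stayed below the ESCs by -0.34 ± 0.07 (adjusted p = 0.0018). EpiSCs exceeded day 2 EpiLCs by 0.62 ± 0.07 (adjusted p = 2.2e-05).

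With amplification the Kdm3a intensity was 1251 and 2039 in ESCs, 302 and 358 in day 2 EpiLCs, 416 and 3700.5 in EpiSCs, 466 and 634 in epiblast, 875 and 1291 in PGCLCs and 902 and 1301 in PGCs. The EpiSC replicates lay far apart, whereas PGCLC and PGC arrays lay above all epiblast and day 2 EpiLC arrays. The EpiSC spread enters the error of every amplified comparison, and the fitted differences were -2.28 ± 0.79 (adjusted p = 0.12) for day 2 EpiLCs minus ESCs, 1.69 ± 0.79 (adjusted p = 0.21) for PGCLCs minus day 2 EpiLCs and 0.99 ± 0.79 (adjusted p = 0.55) for PGCs minus epiblast, none of them called. Fitted without the EpiSC arrays, an alternative chosen after the values were seen, the same log2 differences from day 2 EpiLCs had an SE of 0.32 and adjusted p-values of 0.0024 against ESCs and 0.007 for PGCLCs. Under the replicate block the first was called (adjusted p = 0.031) and the second was not (adjusted p = 0.072).

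Kdm4c, a demethylase of di- and trimethylated H3K9, lies on chromosome 4 (74242497 to 74405864) and was measured by 1 probe set. Its unamplified intensity was 582 and 578 in ESCs, 834 and 931 in day 1 EpiLCs, 904 and 935 in day 2 EpiLCs, 811 and 841 in day 3 EpiLCs, 516 and 572 in EpiSCs and 399 and 367 in PGCLCs. The 6 EpiLC arrays were the highest, with overlap among the days, and the PGCLC arrays were the lowest. Kdm4c fell 2.4-fold from day 2 EpiLCs to PGCLCs, by -1.26 ± 0.08 (adjusted p = 2.2e-07), and lay below the ESC level by -0.60 ± 0.08 (adjusted p = 6.5e-05). Thus the erasers Kdm3a and Kdm4c were called in opposite directions at the same step.

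In the earlier comparisons Kdm4c exceeded the ESC level by 0.60 ± 0.08 (adjusted p = 0.00011) at day 1 and 0.67 ± 0.08 (adjusted p = 3.7e-05) at day 2, and EpiSCs lay below day 2 EpiLCs by -0.76 ± 0.08 (adjusted p = 1.2e-05). With amplification its intensity was 597 and 636 in day 2 EpiLCs, 559 and 548 in epiblast, 413 and 514 in ESCs, 343 and 421 in PGCLCs, 291 and 324 in PGCs and 309 and 1015 in EpiSCs. The PGC arrays were below all epiblast, day 2 EpiLC, ESC and PGCLC arrays. The differences of -0.70 ± 0.45 (adjusted p = 0.37) for PGCLCs minus day 2 EpiLCs and -0.85 ± 0.45 (adjusted p = 0.31) for PGCs minus epiblast were not called.

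**Figure D2:**
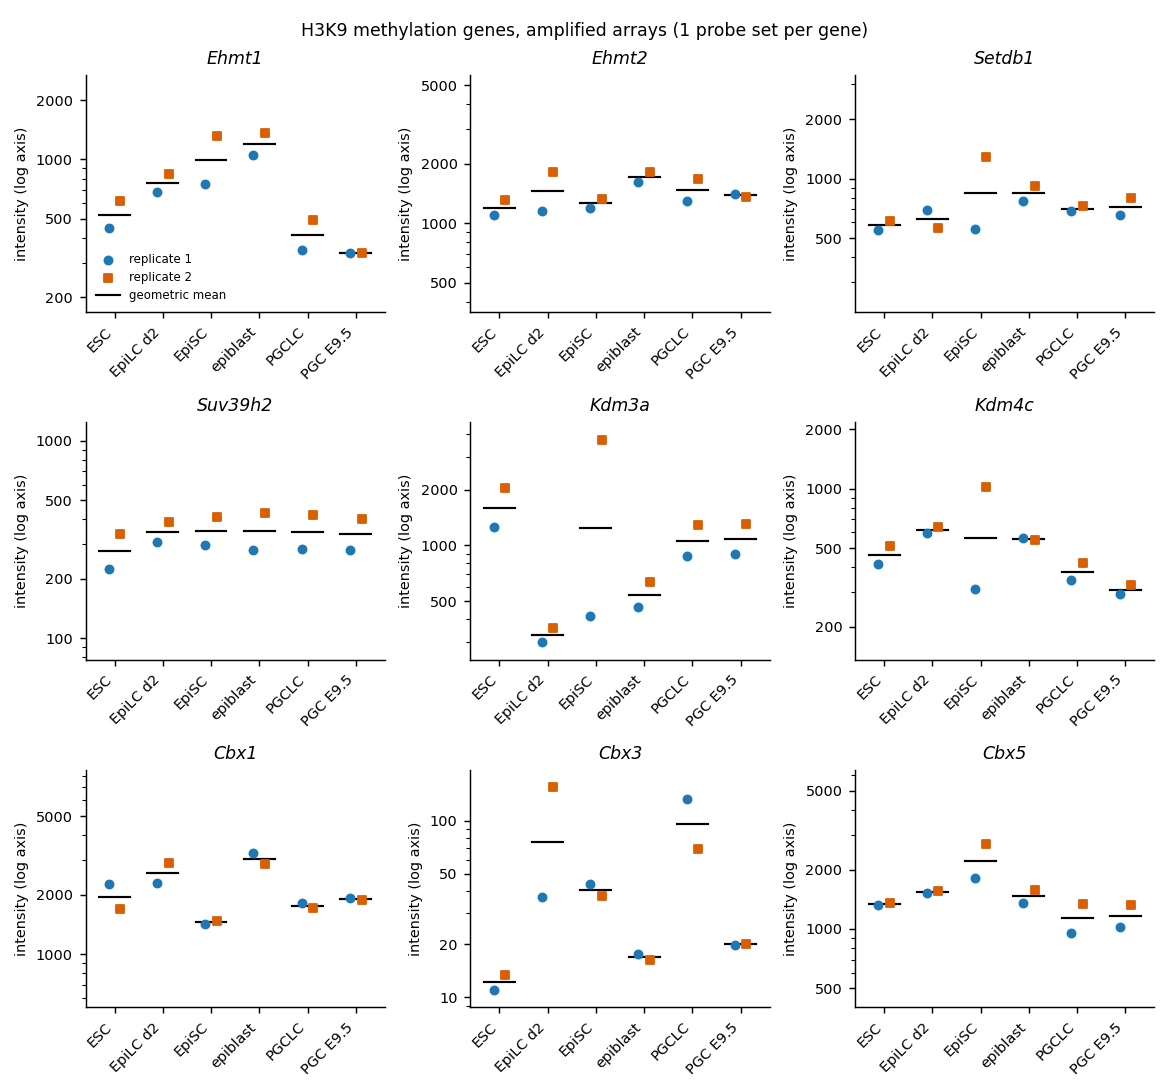
Intensity of the 9 genes on the 12 amplified arrays (log axis, arbitrary units), with 1 panel per gene, a point for each array and a bar at the geometric mean of the 2 arrays of a group. Ehmt1 and Kdm4c are lowest in PGCs, and the EpiSC arrays of Kdm3a lie at 416 and 3700.

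Among the readers, Cbx5 (HP1 alpha) was highest in EpiSCs and lowest in PGCLCs on unamplified arrays, on the probe set that stood for the gene. It gave intensities of 1228 and 1326 in ESCs, 1297 and 1469.9 in day 1 EpiLCs, 1787 and 1732 in day 2 EpiLCs, 1725 and 1740.0 in day 3 EpiLCs, 2173 and 2276 in EpiSCs and 902 and 933 in PGCLCs. Both PGCLC arrays were below every other unamplified array. The log2 difference was -0.94 ± 0.07 (adjusted p = 6.9e-07) for PGCLCs minus day 2 EpiLCs, just under the size for a call, and 0.34 ± 0.07 (adjusted p = 0.0015) for EpiSCs minus day 2 EpiLCs.

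The 5 probe sets of Cbx5 did not move together. From day 1 to day 2 of EpiLC induction the representative gave 0.35 ± 0.07 (adjusted p = 0.0024), while another probe set went from 355 and 330.3 to 207 and 199.9, a difference of -0.75 ± 0.09 (adjusted p = 0.0002). From day 2 EpiLCs to PGCLCs that probe set gave 0.07 ± 0.09 (adjusted p = 0.58), and a pair of dimmer ones gave -0.12 ± 0.14 (adjusted p = 0.51) and -0.72 ± 0.37 (adjusted p = 0.13). The remaining one was above the filter level on 0 unamplified arrays and 1 amplified array. With amplification the representative read 1819 and 2703 in EpiSCs, 1361 and 1574 in epiblast, 952 and 1342 in PGCLCs and 1026 and 1318 in PGCs. The PGC arrays lay below the epiblast arrays, by -0.33 ± 0.26 (adjusted p = 0.55), which was not called.

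Cbx1 (HP1 beta) was highest in EpiLCs among the unamplified groups, on the probe set that stood for the gene. Without amplification Cbx1 read 3932 and 4065 in ESCs, 5789 and 5749 in day 1 EpiLCs, 5409.9 and 5559 in day 2 EpiLCs, 4488 and 4678 in day 3 EpiLCs, 3541 and 3919 in EpiSCs and 3793 and 3534 in PGCLCs. All 6 EpiLC arrays lay above the other 6, and EpiSC and PGCLC arrays overlapped. The differences were 0.53 ± 0.06 (adjusted p = 3.3e-05) for day 1 EpiLCs minus ESCs, -0.56 ± 0.06 (adjusted p = 1.3e-05) for EpiSCs minus day 2 EpiLCs and -0.58 ± 0.06 (adjusted p = 8.2e-06) for PGCLCs minus day 2 EpiLCs, all short of a call.

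A dimmer Cbx1 probe set gave the same directions with larger sizes. It read 961 and 852 in ESCs, 2205 and 2223 in day 1 EpiLCs, 2045 and 1997 in day 2 EpiLCs, 689 and 783 in EpiSCs and 917 and 856 in PGCLCs. Tested on its own it was called in day 1 EpiLCs minus ESCs at 1.29 ± 0.08 (adjusted p = 6e-07), in EpiSCs minus day 2 EpiLCs at -1.46 ± 0.08 (adjusted p = 1.5e-07) and in PGCLCs minus day 2 EpiLCs at -1.19 ± 0.08 (adjusted p = 4.9e-07). The suffix of its name, x_at, marks probes that can match other transcripts. Of the remaining Cbx1 probe sets, a bright one with the same suffix gave -0.60 ± 0.06 (adjusted p = 1.6e-05) for PGCLCs minus day 2 EpiLCs. The 2 dimmest, without that suffix, gave -0.50 ± 0.20 (adjusted p = 0.062) and 0.44 ± 0.15 (adjusted p = 0.031), the last in the opposite direction. Tested on its own, the first of these 2 was also called in day 1 EpiLCs minus ESCs, at 1.22 ± 0.20 (adjusted p = 0.0008). With amplification the representative read 3247 and 2848 in epiblast, 2296 and 2896 in day 2 EpiLCs, 2256 and 1690.3 in ESCs, 1930.3 and 1888 in PGCs, 1814 and 1707 in PGCLCs and 1422 and 1474 in EpiSCs. Epiblast and day 2 EpiLC arrays lay above the others there, and EpiSCs minus day 2 EpiLCs gave -0.83 ± 0.21 (adjusted p = 0.031).

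**Figure D3:**
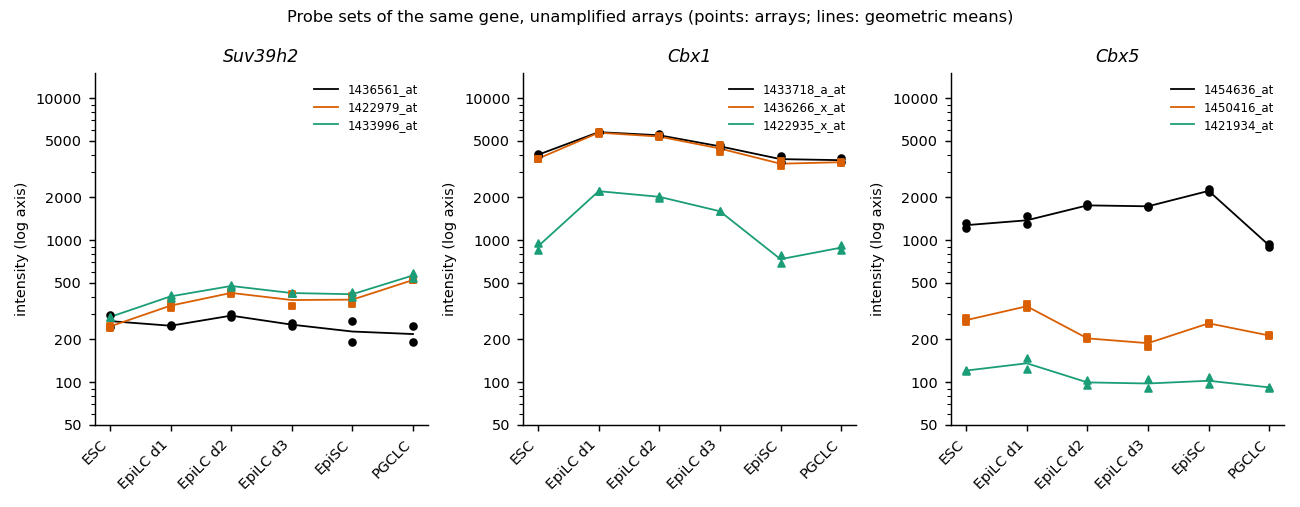
Intensity of the 3 probe sets listed for Suv39h2 alone, and of 3 of the 5 listed for each of Cbx1 and Cbx5 alone, on the unamplified arrays (log axis, arbitrary units). Each probe set has 1 line through the group means and a point for each array. The Cbx1 panel leaves out the 2 dimmest probe sets, of which 1 was higher in PGCLCs than in day 2 EpiLCs. The lines of 1 gene are not parallel: 2 Suv39h2 probe sets are highest in PGCLCs and the other is lowest there.

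Cbx3 (HP1 gamma) had 1 probe set listed for it alone, and the 4 other probe sets that carry its symbol are listed jointly with Cbx3-ps5, a pseudogene by its name. The lone probe set read 204 and 177 in ESCs, 175 and 218 in day 1 EpiLCs, 192 and 216 in day 2 EpiLCs, 265 and 271 in day 3 EpiLCs, 79.4 and 88.6 in EpiSCs and 38.4 and 39 in PGCLCs without amplification. Its PGCLC arrays were the lowest and its EpiSC arrays the next, with no overlap with the ESCs and EpiLCs. It fell by -2.39 ± 0.14 (adjusted p = 1.5e-07) from day 2 EpiLCs to PGCLCs, or 5.26-fold, and by -2.30 ± 0.14 (adjusted p = 1.7e-07) from ESCs to PGCLCs. It was also lower in EpiSCs than in day 2 EpiLCs by -1.28 ± 0.14 (adjusted p = 1.9e-05). In these last comparisons it was the 1 gene of 9 called, against 20.6% of all genes for PGCLCs minus ESCs and 18.9% for EpiSCs minus day 2 EpiLCs.

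The 3 brightest of the jointly listed probe sets did not show differences of this size, and the fourth was near the filter level. The brightest of them overlapped between PGCLCs and ESCs. It read 4917 and 5209 in ESCs, 5518 and 5752 in day 2 EpiLCs, 5249.6 and 5613 in EpiSCs and 5027 and 5404 in PGCLCs, with PGCLC arrays between the ESC and day 2 EpiLC extremes. The next in brightness read 3927 and 4115 in ESCs, 4395 and 4326 in day 2 EpiLCs and 3448 and 3879.6 in PGCLCs, and another 2879.7 and 2896, 3171 and 3095 and 2431 and 2829. On both of these the PGCLC arrays lay below all ESC and day 2 EpiLC arrays. The calls on the lone probe set are therefore calls on that probe set, and the level of Cbx3 mRNA as a whole cannot be read from it.

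With amplification the lone Cbx3 probe set read 11 and 13.5 in ESCs, 36.8 and 155 in day 2 EpiLCs, 44.1 and 37.5 in EpiSCs, 17.6 and 16.2 in epiblast, 132 and 69.4 in PGCLCs and 19.9 and 20.1 in PGCs. ESC, epiblast and PGC arrays lay below the filter level of 24, and the day 2 EpiLC replicates lay far apart. It rose at least 3.15-fold from ESCs to day 2 EpiLCs, with a fitted log2 difference of 2.64 ± 0.57 (adjusted p = 0.019), the 1 gene of 9 called there against 8.51% of all genes. Without either ESC array or without EpiLC replicate 2 this was not called. PGCLCs minus day 2 EpiLCs gave 0.34 ± 0.57 (adjusted p = 0.77), opposite in sign to the unamplified arrays, and the difference between the estimates was 2.74 ± 0.62 (adjusted p = 0.052). Under the replicate block that difference passed, at an adjusted p of 0.033, and so did the one for day 2 EpiLCs minus ESCs, at 0.048.

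The lone Cbx3 probe set had the widest range of group means on unamplified arrays, 2.79 on the log2 scale. Genes with the profile most similar to this probe set were sought by correlation of log2 intensity over the 12 arrays of each set. Gm1673 was the most similar (r = 0.81 unamplified and 0.78 amplified), followed by Gtf2e1 (0.78 and 0.75), Mipep (0.75 and 0.77), Mtmr7 (0.79 and 0.74) and G530011O06Rik (0.72 and 0.84). The 12 arrays of a set share groups of 2, so these values describe the arrays and carry no p-value.

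At the entry from ESCs into EpiLCs no member was called by day 1 on the probe set that stood for it. With limma, 0 of 9 genes were called in day 1 EpiLCs minus ESCs against 12% of all genes, and 5 had an unadjusted p under 0.05. The same 5 genes, Ehmt1, Ehmt2, Kdm4c and Cbx1 higher and Kdm3a lower, had an adjusted p under 0.05 at any size, which holds for 39.9% of all genes. From day 1 to day 2, 0 of 9 were called against 8.04%, with 4 at an unadjusted p under 0.05. From day 2 to day 3, 0 of 9 were called against 4.26%, with 2 at an unadjusted p under 0.05, and Cbx1 was lower by -0.26 ± 0.06 (adjusted p = 0.0076). On amplified arrays EpiSCs minus day 2 EpiLCs gave 0 calls of 9 against 12.5%, with 2 genes at an unadjusted p under 0.05, and PGCLCs minus day 2 EpiLCs gave 0 of 9 against 12.7%, also with 2. The share of all genes at an unadjusted p under 0.05 was not counted. The unadjusted counts here and in later comparisons therefore have no background beside them and do not set the members apart. Under the replicate block Kdm3a was called in EpiSCs minus day 2 EpiLCs (adjusted p = 0.044).

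The culture models were compared with their embryonic counterparts on amplified arrays. Day 2 EpiLCs minus epiblast gave 0 calls of 9 with limma, against 0.961% of all 15608 genes, and 1 gene, Cbx3, had an unadjusted p under 0.05. The log2 differences were -0.65 ± 0.32 (adjusted p = 0.55) for Ehmt1, -0.24 ± 0.26 (adjusted p = 0.88) for Ehmt2 and -0.72 ± 0.79 (adjusted p = 0.88) for Kdm3a. The lone Cbx3 probe set, below the filter level in epiblast, was at least 3.15-fold higher in day 2 EpiLCs, without a call (adjusted p = 0.16). The 95% interval of the Ehmt1 difference was -1.38 to 0.07, which leaves room for a difference of over 2-fold.

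PGCLCs minus PGCs also gave 0 calls of 9, against 2.9% of all genes, with 1 gene, Cbx3, at an unadjusted p under 0.05. Those 452 calls went to 91 and 109 without the first or the second PGCLC array and to 190 and 284 without a PGC array, and to 0 with only these groups in the fit. The differences were 0.31 ± 0.32 (adjusted p = 0.92) for Ehmt1 with a 95% interval of -0.41 to 1.04, 0.31 ± 0.45 (adjusted p = 0.96) for Kdm4c and -0.03 ± 0.79 (adjusted p = 1) for Kdm3a with an interval of -1.79 to 1.74. For Setdb1 and Suv39h2, each on the probe set that stood for the gene, they were -0.03 ± 0.36 (adjusted p = 1) and 0.04 ± 0.35 (adjusted p = 1). A missed threshold does not show equal levels, and the Kdm3a interval spans more than 3-fold in either direction.

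**Figure D4:**
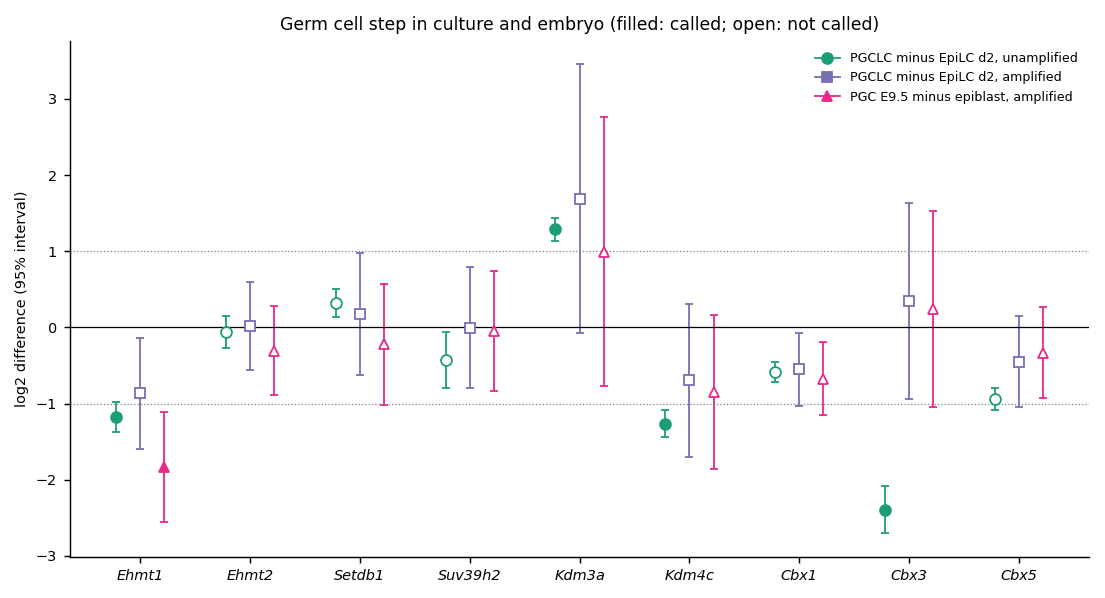
Log2 difference of the germ cell step for the 9 genes, with points at the fitted difference and bars for the 95% interval, for PGCLCs minus day 2 EpiLCs on unamplified and on amplified arrays and for PGCs minus epiblast on amplified arrays. Ehmt1 lies below 0 in all 3 estimates, at -1.18, -0.87 and -1.83.

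The size of the germ cell step was then compared between culture (PGCLCs minus day 2 EpiLCs) and embryo (PGCs minus epiblast) in 1 fit of the amplified arrays. With limma, 0 of 9 genes were called, against 0.513% of all genes, and 0 had an unadjusted p under 0.05. The difference between the steps was 0.96 ± 0.46 (adjusted p = 0.66) for Ehmt1, with a 95% interval of -0.06 to 1.99, so the larger embryonic estimate was not separated from the culture estimate. It was 0.70 ± 1.11 (adjusted p = 0.99) for Kdm3a and 0.15 ± 0.64 (adjusted p = 1) for Kdm4c. The median over the 9 genes was 0.15 and that over all genes was -0.04.

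The dependence of a difference on amplification was tested in a joint fit of both sets. No gene of the 9 was called in the comparisons of day 2 EpiLCs with ESCs (background 0.852%), of EpiSCs with day 2 EpiLCs (background 0.295%) or of PGCLCs with day 2 EpiLCs (background 0.845%), where limma gave 1, 0 and 1 genes at an unadjusted p under 0.05, Cbx3 in both cases. Without the first amplified EpiSC array the background of the EpiSC test went from 43 to 2557 of 14553 genes, and without the second amplified day 2 EpiLC array that of the PGCLC test went from 123 to 280. For Kdm4c the amplified minus unamplified difference of the PGCLC step was 0.57 ± 0.48 (adjusted p = 0.73) and for Kdm3a 0.41 ± 0.86 (adjusted p = 0.92).

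The surrounding H3K9 pathway was read from a list of 28 further genes, of which 26 had a probe set of their own and 25 were tested. In PGCLCs minus day 2 EpiLCs on unamplified arrays 2 of the 25 rose and 4 fell, and 6 of 25 is near the 20.6% called among all genes (8.78% higher and 11.9% lower). The genes that rose were Atf7ip2, a relative of the Setdb1 partner Atf7ip, and Kdm3b, a demethylase of the same family as Kdm3a. Those that fell were Uhrf1, which binds hemimethylated DNA and methylated H3K9, Jmjd1c, another relative of Kdm3a, Kdm7a, a demethylase of H3K9 and H3K27, and Chaf1b, a subunit of the CAF-1 histone chaperone. The median difference of the list was -0.07, beside -0.09 for all genes.

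Kdm3b, like Kdm3a, was lower in day 2 EpiLCs than in ESCs and PGCLCs. It read 1011 and 1013 in ESCs, 434 and 477 in day 2 EpiLCs and 1161 and 1317 in PGCLCs without amplification, and fell by -1.15 ± 0.09 (adjusted p = 2.2e-06) before it rose by 1.44 ± 0.09 (adjusted p = 3.3e-07). With amplification it read 270.4 and 224 in day 2 EpiLCs and 649 and 758 in PGCLCs, a rise of 1.51 ± 0.29 (adjusted p = 0.0075). Jmjd1c went the other way, from 2055 and 2065 to 632 and 556, a fall with a log2 difference of -1.80 ± 0.07 (adjusted p = 5.3e-09). Kdm7a read 268 and 284 in day 2 EpiLCs and 79.8 and 29.5 in PGCLCs, a difference of -2.51 ± 0.33 (adjusted p = 6.9e-05). Its amplified intensity was 73.5 and 20.8 in day 2 EpiLCs and 1.44 and 1 in PGCLCs. The limma difference there was -3.22 ± 0.84 (adjusted p = 0.031), which is a call. EpiLC replicate 2 and both PGCLC arrays lay below the filter level, so the size of this fall cannot be read.

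Uhrf1 read 3543 and 3834 in ESCs, 2000.3 and 2136 in day 2 EpiLCs and 609 and 464 in PGCLCs without amplification. Its PGCLC arrays lay below all other unamplified arrays, at -1.96 ± 0.11 (adjusted p = 1.1e-07) against day 2 EpiLCs. With amplification the Uhrf1 intensity was 1445 and 485 in day 2 EpiLCs and 195 and 75.5 in PGCLCs, a difference of -2.79 ± 0.81 (adjusted p = 0.048). Atf7ip2 went from 259.8 and 267 in day 2 EpiLCs to 772 and 993 in PGCLCs, a rise of 1.73 ± 0.17 (adjusted p = 6.7e-06). With amplification that rise was 2.47 ± 0.44 (adjusted p = 0.0053), and from epiblast to PGCs, 108 and 159 to 335 and 496, it was 1.64 ± 0.44 (adjusted p = 0.043).

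The calls among the 25 listed genes in the other comparisons follow, and the share called among all genes is given after each. On unamplified arrays 1 fell in day 1 EpiLCs minus ESCs (12%), 1 rose from day 1 to day 2 (8.04%) and 2 fell from day 2 to day 3 (4.26%). There 1 rose and 1 fell in day 2 EpiLCs minus ESCs (16.5%), 1 rose and 2 fell in EpiSCs minus day 2 EpiLCs (18.9%), and 2 rose and 5 fell in PGCLCs minus ESCs (20.6%). On amplified arrays 2 rose and 2 fell in PGCLCs minus day 2 EpiLCs (12.7%), and 2 rose and 1 fell in PGCs minus epiblast (10.5%). With limma 0 were called in day 2 EpiLCs minus ESCs (8.51%), EpiSCs minus day 2 EpiLCs (12.5%), day 2 EpiLCs minus epiblast (0.961%) and PGCLCs minus PGCs (2.9%), where 1, 5, 2 and 4 had an unadjusted p under 0.05. The share of all genes at that unadjusted threshold was not counted. The genes that fell from day 2 to day 3 EpiLCs were Tasor, at -1.17 ± 0.10 (adjusted p = 1.8e-05), and Morc2a, at -1.20 ± 0.10 (adjusted p = 1.6e-05), both tied to the HUSH complex that recruits Setdb1.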

How the data were processed

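RNA was hybridised to Affymetrix mouse arrays from 24 samples in 12 groups of 2. The deposited table gives 1 linear intensity per probe set and array for 45101 probe sets; how the authors scaled these intensity values is not stated in the labels or headers used. The members and gene lists were chosen with earlier results of these data known. Gene symbols came from the platform annotation, which lists 34945 probe sets for 1 gene, and coordinates and promoters from RefSeq (GRCm38.p6); positions of the probes were not used here. The brightest probe set of a gene (mean log2 over the 24 arrays) stood for it. Intensities were raised to a floor of 4.2 (the 10th percentile), log2 was taken with no further scaling, and a gene was tested where at least 2 arrays of a set exceeded its 40th percentile (28.1 unamplified, 24 amplified), which left 14934 and 15608 genes, and 14553 in both.

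Each set was fitted in limma 3.58.1 (R 4.3.3) with 1 mean per group, variances moderated along an intensity trend (6 residual degrees of freedom), and p-values were two-sided and adjusted by Benjamini-Hochberg over all genes. On simulated data of the same size, 96% and 100% of genes with true log2 differences of 2 and 3 were recovered without amplification, and 81% and 90% with it. Among unchanged genes, 1 was called without amplification and 13 with it. The simulated noise was independent between arrays. Sizes between 1 and 2, where the Ehmt1, Kdm4c and Kdm3a calls lie, were not simulated. Alternatives covered normalization, floor, pseudocount, filter, probe set rule, variance model, samples in the fit, blocks and left-out arrays. The number of arrays limits the precision. Deviations of same-numbered arrays correlated above 0.1 in 15 of 15 group pairs with amplification (median 0.37) and in 3 of 15 without it (median 0.05). With amplification these numbers coincide with an array code in the descriptions. A block on them was run as an alternative. The fit reported has no such block, so its amplified standard errors and p-values leave this pairing out. Blocked values stand beside the results they change. Genes named were the 10 members, the 4 called genes of the H3K9 list with the largest differences per comparison, and the 5 genes most similar to the member of widest range. Kdm3b and Chaf1b on unamplified arrays in PGCLCs minus day 2 EpiLCs were named outside this rule after their values were seen.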

Additional observations from a re-analysis of the deposited data

How the results depend on the processing

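Over 270 recomputed counts of called members, 243 stayed within 1.5 times the reported count and 27 moved, and no member difference that was called changed sign. The 7 calls on unamplified arrays held under all 14 alternatives: for example, Ehmt1 in PGCLCs minus day 2 EpiLCs ranged from -1.34 to -1.01. Some alternatives could not move these differences. Each of the genes called there had 1 probe set, so the mean over probe sets gave the same values. Leaving out the filter or the intensity trend, blocking on the replicate number and fitting only the compared groups could change only the p-values. The same holds for the floor at the 40th percentile, because all unamplified values of these genes lay above it. Ehmt1 in PGCs minus epiblast held in 13 of 14 (-2.01 to -1.65), and Cbx3 in amplified day 2 EpiLCs minus ESCs was lost in 5 of 14, with the count going to 0 with the floor at the 40th percentile. With each probe set on its own, the counts became 1 for day 1 EpiLCs minus ESCs (Cbx1), 2 for day 2 EpiLCs minus ESCs (Cbx1, Kdm3a), 2 for EpiSCs minus day 2 EpiLCs (Cbx1, Cbx3) and 2 for PGCLCs minus ESCs (Cbx3, Suv39h2), all unamplified. Counts over all genes moved by over 1.5 times in 12 comparisons. They ranged over the alternatives with 1 value per gene from 770 to 1264 (reported 1201) from day 1 to day 2 EpiLCs and 362 to 707 (636) from day 2 to day 3, the lowest with log2 of the value plus 16. On amplified arrays they ranged from 659 to 1877 (1329) for day 2 EpiLCs minus ESCs, 464 to 3956 (1947) for EpiSCs minus day 2 EpiLCs, 1013 to 2646 (1985) for PGCLCs minus day 2 EpiLCs, 11 to 309 (150) for day 2 EpiLCs minus epiblast, 794 to 2188 (1635) for PGCs minus epiblast, 0 to 774 (452) for PGCLCs minus PGCs and 12 to 257 (80) for the culture minus embryo step. In the amplification tests they ranged from 34 to 342 (124), 2 to 2557 (43) and 14 to 385 (123) for day 2 EpiLCs minus ESCs, EpiSCs minus day 2 EpiLCs and PGCLCs minus day 2 EpiLCs. With amplified arrays the replicate block gave the highest count except in both EpiSC comparisons, where leaving out EpiSC replicate 1 did.

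The replicate block gave amplified counts of 2 for day 2 EpiLCs minus ESCs (Cbx3, Kdm3a) and 1 for EpiSCs minus day 2 EpiLCs (Kdm3a, adjusted p = 0.044), and 1 (Cbx3) in the amplification tests of day 2 EpiLCs minus ESCs and of PGCLCs minus day 2 EpiLCs. It changed no other count of called members by over 1.5 times. On unamplified arrays the replicate numbers coincide with the array code only in part. Replicate 1 carries the code EA0830 in EpiSCs and PGCLCs and EA0796 in ESCs and EpiLCs, and replicate 2 carries EA0840 in every group. The unamplified steps from day 2 EpiLCs to PGCLCs and to EpiSCs thus differ in part in the code as well. The unamplified calls held with a block on the code. The amplification test of PGCLCs minus day 2 EpiLCs also gave 1 (Cbx3) with the floor at the 40th percentile, with log2 of the value plus 16 and with the mean over probe sets. Amplified counts became 1 for EpiSCs minus day 2 EpiLCs with quantile normalization (Cbx1), 1 for PGCLCs minus day 2 EpiLCs with only the compared groups (Kdm3a), and 2 (Cbx3, Kdm3a) and 1 (Kdm3a) for day 2 EpiLCs minus ESCs and PGCLCs minus day 2 EpiLCs without the EpiSC arrays. Quantile normalization shifted the median of all genes in EpiSCs minus day 2 EpiLCs from 0.02 to -0.11 unamplified and from 0.03 to -0.10 amplified.

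Leaving out 1 array gave 0 to 1 calls for day 1 EpiLCs minus ESCs (Kdm3a, without day 1 replicate 1) on unamplified arrays. On amplified arrays it gave 0 to 1 for day 2 EpiLCs minus ESCs, 0 to 2 for EpiSCs minus day 2 EpiLCs (Cbx3 without EpiLC replicate 1; Kdm3a and Setdb1 without EpiSC replicate 1), 0 to 1 for day 2 EpiLCs minus epiblast (Cbx3, without EpiLC replicate 1) and 0 to 1 for PGCs minus epiblast. In the amplification tests it gave 0 to 1 for day 2 EpiLCs minus ESCs and for PGCLCs minus day 2 EpiLCs, and 0 to 3 for EpiSCs minus day 2 EpiLCs (Kdm3a, Kdm4c and Setdb1, without EpiSC replicate 1). The lone array left in a group was assumed to vary like the other groups. The causes of these shifts were not tested.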

Other observations

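Beyond the genes described above, the reader Cdyl, a chromodomain protein that binds methylated H3K9, rose in PGCLCs against ESCs and in PGCs against epiblast. Cdyl read 887 and 854 in ESCs, 1345 and 1337 in day 2 EpiLCs and 1972 and 2207 in PGCLCs on unamplified arrays, and the PGCLC arrays were above all others. It rose by 1.26 ± 0.07 (adjusted p = 1e-07) from ESCs to PGCLCs. On amplified arrays it read 689.9 and 532 in epiblast and 1923 and 1350.3 in PGCs, a rise of 1.41 ± 0.39 (adjusted p = 0.048). Chaf1b, the CAF-1 subunit, went the other way, from 915 and 978 in day 2 EpiLCs to 326 and 299 in PGCLCs (-1.60 ± 0.07 (adjusted p = 2e-08)) and from 843 and 809 in epiblast to 437 and 315 in PGCs (-1.16 ± 0.24 (adjusted p = 0.014)). The summed endothelial and blood markers were also highest in the PGC arrays, and their part in these values was not tested.

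The demethylase Phf2 was highest in EpiSCs, at 436 and 463 against 168 and 183 in day 2 EpiLCs on unamplified arrays, a rise of 1.36 ± 0.21 (adjusted p = 0.00023). The summed fibroblast markers were highest in the same EpiSC arrays, and their part in this value was not tested.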
